A study of Mus musculus with 15 samples.

Results

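Cell cycle and DNA replication genes were followed through a series on mouse small intestinal organoids, miniature epithelial cultures grown from crypts. The panel comprised 41 genes chosen by symbol from the 78298 gene identifiers of the count tables, and each symbol matched exactly 1 identifier. It was read as 18 S phase genes (Mcm2 to Mcm7, Pcna, Rrm1, Rrm2, Tyms, Cdc6, Cdt1, Cdc45, Gins2, E2f1, Chek1, Ccne1 and Ccne2) and 23 mitosis genes (Mki67, Top2a, Ccna2, Ccnb1, Ccnb2, Cdk1, Bub1, Bub1b, Aurka, Aurkb, Plk1, Kif11, Kif20a, Kif23, Cenpa, Cenpe, Cenpf, Birc5, Ube2c, Tpx2, Nusap1, Hmmr and Cdc20). All 41 passed the filter on low counts and were among the 17560 genes tested.

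The 15 libraries covered 5 conditions with 3 libraries each. Control organoids (Halo-NLS) carried a V5-tagged HaloTag with a nuclear localisation signal. The SOX9 lines carried SOX9 fused to HaloTag (SOX9-Halo) or to the fluorescent protein mEGFP (SOX9-mEGFP), and each SOX9 line was sampled once with the usual budding shape and once, at a later passage, as round spheroids. Each of these transgenes was delivered by lentivirus, driven by the weak ubiquitous L30 promoter and linked to puromycin resistance. All conditions, control included, therefore shared this transduction and puromycin selection. The spheroid cultures carried a further transgene, the histone fusion H2B-mEGFP in SOX9-Halo_spheroid and H2B-mScarletI in SOX9-mEGFP_spheroid. By the study's methods it came from a second lentiviral transduction, with selection by Zeocin for H2B-mEGFP and by Geneticin for H2B-mScarletI. Spheroid shape, longer time in culture and this further transgene with its selection therefore went together and cannot be told apart here. Each construct was represented by 1 stable line, and wells were pooled into each sample. According to the study's methods, the replicates were biological triplicates. Sox9 itself had normalised counts of 515, 769 and 305 in Halo-NLS, 11368, 11086 and 6487 in SOX9-mEGFP_budding, 1336, 10538 and 6838 in SOX9-Halo_budding, 8726, 16922 and 23654 in SOX9-mEGFP_spheroid and 10522, 14834 and 14812 in SOX9-Halo_spheroid (replicates 1, 2 and 3). SOX9-Halo_budding replicate 1 was far below the other SOX9 libraries and above every control library. Sox9 was called higher than in Halo-NLS in all 4 SOX9 conditions, with log2 fold changes of 4.19 in SOX9-mEGFP_budding, 3.56 in SOX9-Halo_budding, 4.95 in SOX9-mEGFP_spheroid and 4.66 in SOX9-Halo_spheroid.

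Cells that divide first switch on the E2F factors, whose targets include the MCM helicase, the loading factors Cdc6 and Cdt1, and the enzymes that supply deoxynucleotides. Genes of G2 phase and mitosis follow later in the same cycle and build the spindle, the kinetochores and the cyclin B kinase complex. In the intestine, dividing cells sit in the crypts, and absorptive enterocytes leave the cycle as they mature. The level of these transcripts in a whole culture therefore follows both how many cells cycle and how much RNA each one holds. In these bulk libraries, fewer cells of a type and less RNA per cell cannot be told apart.

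Depth ran from 28062722 to 40559766 counts on genes per library, with a median of 33491297. Markers of mesenchyme, leukocytes and endothelium summed to at most 2.28 CPM (counts scaled to a common library total) in any library. Epithelial markers summed to between 4276 and 9364 CPM. Enterocyte markers (7 genes) summed to between 4094 and 23348 CPM in the 9 Halo-NLS and budding libraries, to between 327 and 992 CPM in SOX9-mEGFP_spheroid and to between 4.43 and 13.5 CPM in SOX9-Halo_spheroid. Crypt base stem cell markers (4 genes) summed to between 147 and 926 CPM in the Halo-NLS and budding libraries, to between 46.2 and 76.7 CPM in SOX9-mEGFP_spheroid and to between 20.5 and 31.0 CPM in SOX9-Halo_spheroid. The part of either marker list in the values of the panel was not tested.

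Levels of different members can only be compared per length of transcript. Expressed as CPM per kilobase of the canonical transcript and averaged over the 5 conditions, the members spanned from 0.745 for Cenpf to 126 for Ube2c. Ube2c, the ubiquitin-conjugating enzyme of the anaphase-promoting complex, was followed by Pcna, the sliding clamp of DNA polymerase, at 90.2. Birc5, a subunit of the chromosomal passenger complex, stood at 69.2 and Cdc20, an activator of the anaphase-promoting complex, at 69.1. Chek1, the replication checkpoint kinase, at 0.875 and Ccne2, a cyclin that drives entry into S phase, at 1.32 stood next to Cenpf at the lower end.

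Promoters were read because most members moved together between replicates in some conditions, as shown further on. They were taken as 250 bases before to 50 bases after the canonical start site (GRCm39, GENCODE M39) and searched on both strands for 3 short motifs. The CHR element (TTTGAA) was present in 12 of the 23 mitosis promoters (52.2%) and in 2 of the 18 S phase promoters (11.1%), against 13.7% of the 13197 promoters of protein-coding genes tested. An E2F motif (TTTCCCGC, TTTCGCGC, TTTGCCGC or TTTGGCGC) was present in 7 of 18 S phase promoters (38.9%) and in 1 of 23 mitosis promoters (4.35%), against 3.71% of all. The CCAAT box (CCAAT) was present in 17 of 23 mitosis promoters (73.9%), 10 of 18 S phase promoters (55.6%) and 39.5% of all. A CHR and a CCAAT box occurred together in 11 mitosis promoters (47.8%) against 5.77% of all. The 7 E2F-motif promoters of the S phase genes were those of Cdc6, Cdt1, E2f1, Mcm3, Mcm4, Mcm5 and Mcm6. These matches describe letters in a window and not bound sites, and 1 promoter could hold several motifs.

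The following stretches, from 170 bases before the start site to 29 after it, are shown as examples of these motif combinations and include 3 of the 5 members called in the comparison with the control (Rrm1, Mcm4 and Kif23), with every match to the 3 motifs, on either strand, in capitals. They are Rrm1 (chr7:102090720-102090919, plus strand), Mcm4 (chr16:15455235-15455434, minus strand), Mcm5 (chr8:75835970-75836169, plus strand), E2f1 (chr2:154411783-154411982, minus strand), Kif23 (chr9:61854044-61854243, minus strand), Cdk1 (chr10:69188739-69188938, minus strand) and Top2a (chr11:98915012-98915211, minus strand), all in GRCm39 and written 5′ to 3′ on the strand of the gene. In Kif23 the CHR and the reversed CCAAT box (ATTGG) stand a few bases apart next to the start site, and in Mcm5 the capitals before the CCAAT boxes are 2 E2F motifs that overlap on opposite strands.
Rrm1: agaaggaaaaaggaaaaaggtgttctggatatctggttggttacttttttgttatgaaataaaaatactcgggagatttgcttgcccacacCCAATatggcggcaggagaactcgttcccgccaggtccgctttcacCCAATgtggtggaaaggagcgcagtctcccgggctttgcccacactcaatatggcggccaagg
Mcm4: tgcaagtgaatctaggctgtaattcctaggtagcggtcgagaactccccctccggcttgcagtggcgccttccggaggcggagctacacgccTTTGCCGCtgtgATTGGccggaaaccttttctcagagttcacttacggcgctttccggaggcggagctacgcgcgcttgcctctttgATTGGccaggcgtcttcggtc
Mcm5: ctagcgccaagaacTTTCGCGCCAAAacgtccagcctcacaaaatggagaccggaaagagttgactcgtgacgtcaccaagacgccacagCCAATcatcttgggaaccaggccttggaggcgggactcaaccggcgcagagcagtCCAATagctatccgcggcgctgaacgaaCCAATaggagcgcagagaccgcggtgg
E2f1: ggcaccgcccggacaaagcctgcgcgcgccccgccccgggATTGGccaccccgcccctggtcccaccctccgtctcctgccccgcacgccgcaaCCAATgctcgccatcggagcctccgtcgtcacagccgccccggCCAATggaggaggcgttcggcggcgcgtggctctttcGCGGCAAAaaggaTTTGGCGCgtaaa
Kif23: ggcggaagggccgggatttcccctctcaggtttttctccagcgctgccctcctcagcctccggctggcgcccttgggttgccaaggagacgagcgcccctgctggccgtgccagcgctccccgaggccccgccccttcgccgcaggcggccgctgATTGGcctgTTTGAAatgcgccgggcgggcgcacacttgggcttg
Cdk1: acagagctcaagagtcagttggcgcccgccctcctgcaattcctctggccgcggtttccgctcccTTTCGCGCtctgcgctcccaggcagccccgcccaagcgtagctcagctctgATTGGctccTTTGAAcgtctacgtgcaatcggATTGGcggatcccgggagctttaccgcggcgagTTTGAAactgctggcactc
Top2a: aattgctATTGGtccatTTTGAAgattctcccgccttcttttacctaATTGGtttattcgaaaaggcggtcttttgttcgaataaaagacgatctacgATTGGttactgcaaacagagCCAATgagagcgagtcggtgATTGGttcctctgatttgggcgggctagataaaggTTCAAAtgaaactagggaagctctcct

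Some libraries stood apart before any comparison was made. Transcript GC content, the share of G and C bases in the canonical transcript, ran from 39.2% in Chek1 to 58.8% in Cdt1 among the members, with 11 members under 45% and 14 at 50% or more. Over 15710 genes, log2 CPM rose with GC content relative to the mean of all libraries by 0.913 per 10 percentage points in Halo-NLS replicate 2, 0.691 in Halo-NLS replicate 3 and 0.329 in SOX9-Halo_budding replicate 2. The other 12 libraries had slopes between -0.488 and 0.138. The members followed the same trend within their condition. Across the 41 members, the deviation from the condition mean correlated with GC content at r = -0.78, 0.69 and 0.62 in Halo-NLS replicates 1 to 3 and at r = -0.68, 0.72 and -0.62 in those of SOX9-Halo_budding (a description over genes of the same libraries, which are not independent). The 11 members under 45% GC lay at a median deviation from the condition mean (log2) of 1.18 in Halo-NLS replicate 1, -1.32 in Halo-NLS replicate 2 and -1.29 in SOX9-Halo_budding replicate 2. The plot of members by GC content shows these slopes, which were flatter in SOX9-mEGFP_budding and in the spheroid libraries. The study's methods include a check of RNA integrity ahead of the libraries, values for single libraries were not used here, and the part of library preparation in this trend was not tested.

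**Figure D1:**
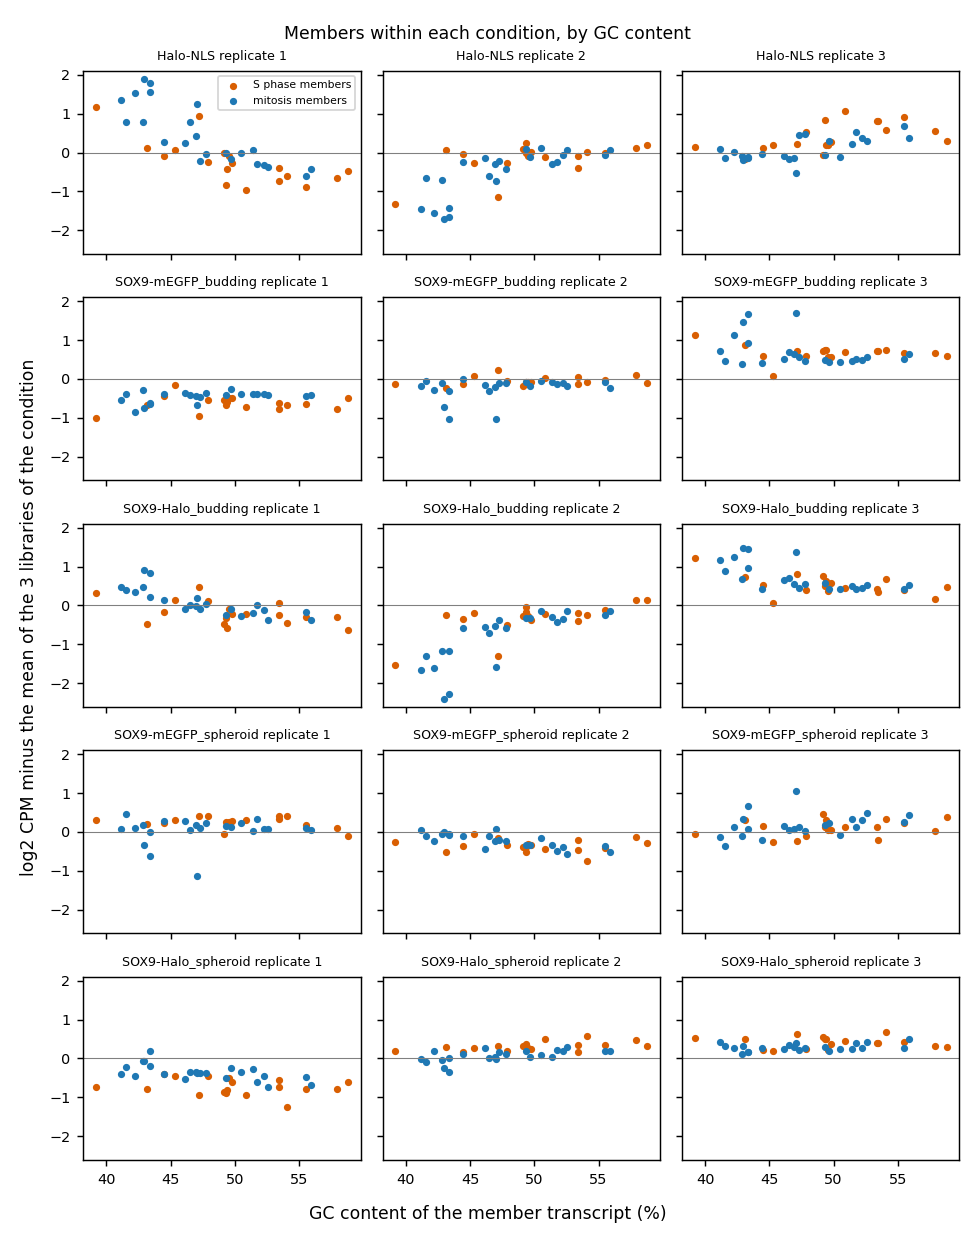
Each panel is 1 library; each point is 1 of the 41 members, placed by the GC content of its transcript (x axis, percent) and by its log2 CPM minus the mean of the 3 libraries of its condition (y axis), with S phase members in orange and mitosis members in blue. The members slope down with GC content in Halo-NLS replicate 1 (r = -0.78) and up in replicate 2 (r = 0.69) and in SOX9-Halo_budding replicate 2 (r = 0.72).

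Below, normalised counts are given for replicates 1, 2 and 3 of each condition in that order, on a scale where every library has the same effective size. A gene was called higher or lower when edgeR's quasi-likelihood test gave a Benjamini-Hochberg adjusted p of at most 0.01 over all 17560 genes, the change was at least 2-fold and the mean normalised count was at least 10. Spread between replicates was large for many members. The ratio of the highest to the lowest replicate had a median of 1.78 and reached 12.5 (Cenpe) in Halo-NLS, and it reached 14.9 (Cenpe) in SOX9-Halo_budding, 6.62 (Mki67) in SOX9-mEGFP_budding, 4.54 (Mki67) in SOX9-mEGFP_spheroid and 3.84 (Ccne1) in SOX9-Halo_spheroid.

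In some conditions most members also moved together between replicates. In SOX9-mEGFP_budding, replicate 3 was the highest library for 17 of 18 S phase members and 23 of 23 mitosis members. The same counts, 17 of 18 and 23 of 23, held for replicate 3 of SOX9-Halo_budding. In SOX9-Halo_spheroid, replicate 1 was the lowest library for 18 of 18 S phase members and 21 of 23 mitosis members. The member groups parted in Halo-NLS, where replicate 1 was the lowest for 10 of 18 S phase members and the highest for 12 of 23 mitosis members. They also parted in SOX9-mEGFP_spheroid, where replicate 1 was the highest for 13 of 18 S phase members and replicate 3 for 14 of 23 mitosis members. Summed over the S phase members, the level in SOX9-Halo_spheroid was 971 CPM in replicate 1 against 1912 and 1972 CPM in replicates 2 and 3. In Halo-NLS the same sums were 863, 1076 and 1682 CPM, in SOX9-mEGFP_budding 714, 981 and 1542 CPM, in SOX9-Halo_budding 922, 891 and 1413 CPM, and in SOX9-mEGFP_spheroid 1030, 688 and 969.5 CPM. The ranges of all 5 conditions overlapped. Among the Halo-NLS and budding libraries, the replicate with the highest S phase sum in each condition, replicate 3, was the one with the lowest enterocyte marker sum in that condition, at 12272 CPM in Halo-NLS, 4094 CPM in SOX9-mEGFP_budding and 8264 CPM in SOX9-Halo_budding. The part of enterocyte content in these replicate differences was not tested.

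**Figure D2:**
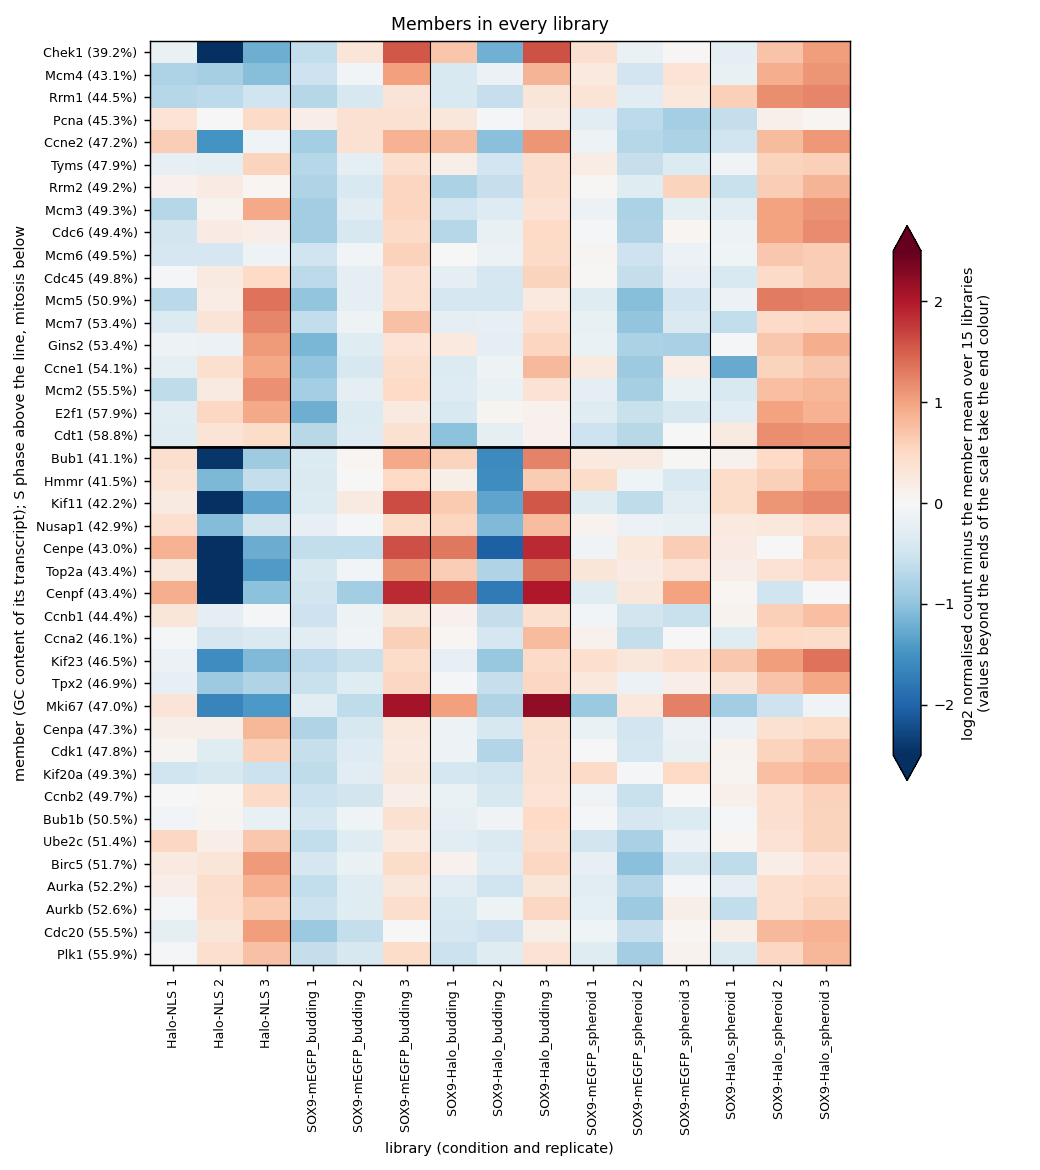
Heat map of the 41 members (rows, with the GC content of the transcript in percent; S phase above the line, mitosis below, each by rising GC content) in the 15 libraries (columns), coloured by log2 normalised count minus the mean of the member over all 15 libraries; values beyond the ends of the scale take the end colour. Libraries of 1 condition differ as blocks, such as SOX9-Halo_spheroid replicate 1, which is the lowest of its condition for all 18 S phase members, and Halo-NLS replicate 2, in which the members of low GC content are low.

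SOX9-Halo_spheroid against Halo-NLS was the comparison of the end point with the control. Of the 41 members, 5 were called higher and 0 lower, against 13.6% higher and 15.3% lower among all genes tested, so the share of members called higher was close to the background. The 5 were Rrm1 and Mcm4 of S phase and Kif23, Tpx2 and Kif20a of mitosis. The median log2 fold change was 0.36 for S phase members and 0.39 for mitosis members, against -0.01 for all genes, and 33 of 41 values were positive. DESeq2 also called 5 members higher and 0 lower, against 14.7% and 16.5% of all genes. At an unadjusted p under 0.05, 9 members were higher and 0 lower, against 26% and 29%, so that neither count raised the members above the background.

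Rrm1, the large subunit of ribonucleotide reductase, which makes deoxynucleotides, had normalised counts of 2629.6, 2731 and 3047 in Halo-NLS, 2618, 3248 and 5372 in SOX9-mEGFP_budding, 3310.3, 2887 and 5320.0 in SOX9-Halo_budding, 5417, 3587 and 5149 in SOX9-mEGFP_spheroid and 6467, 9611 and 9974 in SOX9-Halo_spheroid. All 3 SOX9-Halo_spheroid libraries lay above every library of the other conditions, and the control libraries were close together. The difference from Halo-NLS was a log2 fold change of 1.63, SE 0.30, adjusted p = 0.00037, a 3.10-fold rise. Rrm1 has a GC content of 44.5%, and its log2 fold change was 1.23 (adjusted p = 0.0032) with the GC trend of each library removed.

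Mcm4, a subunit of the MCM helicase that unwinds DNA at replication origins, had counts of 878, 839 and 718 in Halo-NLS, 1051, 1425 and 3048 in SOX9-mEGFP_budding, 1158, 1359 and 2699 in SOX9-Halo_budding, 1769, 1077 and 1904 in SOX9-mEGFP_spheroid and 1315, 2803 and 3227 in SOX9-Halo_spheroid. The 3 control libraries were the lowest of the series, and SOX9-Halo_spheroid replicate 1 was lower than 2 budding libraries of the same line. The difference from Halo-NLS was a log2 fold change of 1.59, SE 0.43, adjusted p = 0.0069. The call was lost without any of the 3 Halo-NLS libraries, without SOX9-Halo_spheroid replicate 2 or 3, without SOX9-mEGFP_spheroid replicate 1 and with the GC trend removed (log2 fold change 1.14, adjusted p = 0.039).

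Kif23, the kinesin of the central spindle that serves cytokinesis and whose promoter is shown above, had counts of 1313, 498 and 680.0 in Halo-NLS, 921, 993 and 1996 in SOX9-mEGFP_budding, 1268, 756 and 2024 in SOX9-Halo_budding, 1943, 1767 and 1946 in SOX9-mEGFP_spheroid and 2329, 2988 and 3743 in SOX9-Halo_spheroid. Every SOX9-Halo_spheroid library was above every other library of the series. The difference from Halo-NLS was a log2 fold change of 1.86, SE 0.41, adjusted p = 0.0017, a 3.64-fold rise. The call stood without any single library and with the GC trend removed (log2 fold change 1.77).

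Tpx2, which activates Aurora A kinase on the spindle, had counts of 1771, 1078 and 1199 in Halo-NLS, 1388, 1647 and 2924 in SOX9-mEGFP_budding, 1969, 1367 and 2919 in SOX9-Halo_budding, 2447, 1834 and 2274 in SOX9-mEGFP_spheroid and 2538, 3343 and 3978 in SOX9-Halo_spheroid. SOX9-Halo_spheroid did not overlap with Halo-NLS but did overlap with both budding conditions. The difference from Halo-NLS was a log2 fold change of 1.28, SE 0.33, adjusted p = 0.0044, and it was lost without Halo-NLS replicate 2 (adjusted p = 0.021) or replicate 3 (adjusted p = 0.019) and without SOX9-Halo_spheroid replicate 2 (0.014) or replicate 3 (0.025).

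Kif20a, another kinesin of cytokinesis, had counts of 948, 1014 and 924 in Halo-NLS, 861, 1094 and 1613 in SOX9-mEGFP_budding, 983, 939.9 and 1735 in SOX9-Halo_budding, 1849, 1308 and 1878 in SOX9-mEGFP_spheroid and 1398, 2252 and 2429 in SOX9-Halo_spheroid. Its 3 control libraries lay close together, all below SOX9-Halo_spheroid. The difference of SOX9-Halo_spheroid from Halo-NLS was a log2 fold change of 1.07, SE 0.30, adjusted p = 0.0077, and it was lost in 9 of the 15 fits that left out 1 library, among them each of the Halo-NLS libraries. Exons of other genes overlap 61.5% of its exonic bases, and reads there were counted for neither gene.

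Without Halo-NLS replicate 2, Halo-NLS replicate 3, SOX9-Halo_spheroid replicate 2 or SOX9-Halo_spheroid replicate 3, the count of members called higher was 2 in each case, namely Rrm1 and Kif23. Without SOX9-mEGFP_spheroid replicate 1, which enters only through the shared estimate of spread, it was 3. Shares of all genes called in these fits are not given, so the counts describe only which calls stood. With the GC trend removed it was again 5 (all genes 16.1%), with Cdt1 in place of Mcm4.

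Members at the other end of this comparison were Birc5, Pcna and Mcm7. Birc5, which encodes survivin, had counts of 2512, 2634 and 4479.9 in Halo-NLS, 1590.2, 1909 and 2956 in SOX9-mEGFP_budding, 2302, 1727 and 3071 in SOX9-Halo_budding, 1842, 1040.4 and 1589 in SOX9-mEGFP_spheroid and 1372, 2403 and 2731 in SOX9-Halo_spheroid, and SOX9-Halo_spheroid overlapped with Halo-NLS (log2 fold change -0.56, 95% interval -1.29 to 0.16, adjusted p = 0.18). Pcna counts were 5641, 4445 and 6147 in Halo-NLS, 4971, 5807 and 5758 in SOX9-mEGFP_budding, 5407, 4305 and 5189 in SOX9-Halo_budding, 3636, 2814 and 2474 in SOX9-mEGFP_spheroid and 2956, 4849 and 4578 in SOX9-Halo_spheroid, again with overlap (log2 fold change -0.39, 95% interval -0.85 to 0.07, adjusted p = 0.15). Mcm7, another helicase subunit, had counts of 3082, 4870.0 and 9068 in Halo-NLS, 2567, 3597 and 6486 in SOX9-mEGFP_budding, 3308, 3417 and 5240.0 in SOX9-Halo_budding, 3459, 1985 and 3033 in SOX9-mEGFP_spheroid and 2550.2, 5420.1 and 5577 in SOX9-Halo_spheroid, with Halo-NLS replicate 3 the highest of all 15 libraries (log2 fold change -0.33, 95% interval -1.23 to 0.57, adjusted p = 0.54). Of all 41 members, 13 had a 95% interval that lay wholly within a 2-fold change in either direction.

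**Figure D3:**
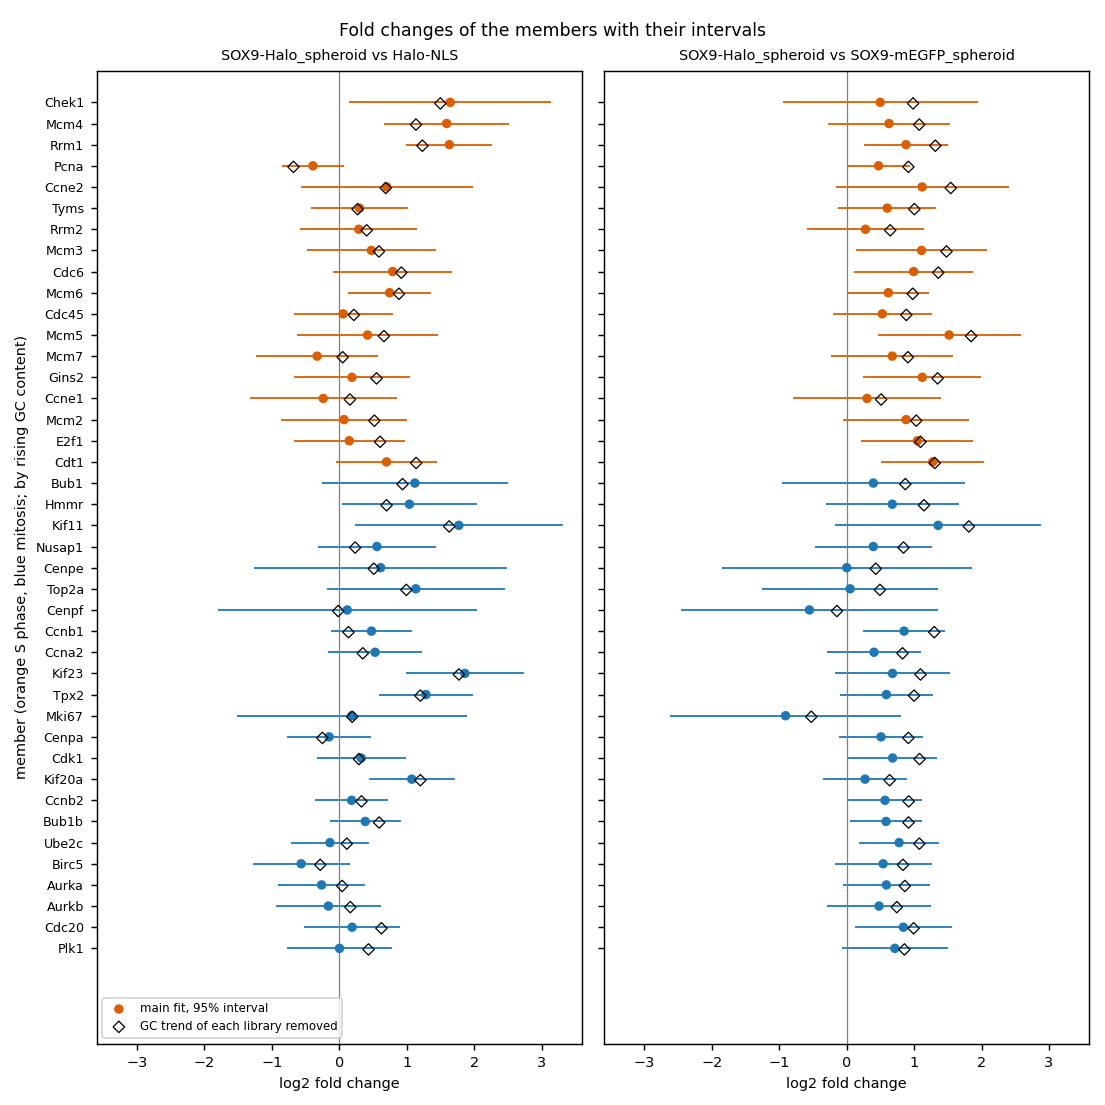
Log2 fold change (x axis) of each of the 41 members (rows; orange S phase, blue mitosis, each by rising GC content) in SOX9-Halo_spheroid against Halo-NLS (left) and against SOX9-mEGFP_spheroid (right), with the 95% interval from edgeR as a bar and the value with the GC trend of each library removed as an open diamond. On the right 39 of 41 filled points lie above 0; on the left 33 do, and Cenpf, Cenpe and Mki67 have the widest intervals in both.

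In SOX9-mEGFP_spheroid against Halo-NLS, 0 members were called higher and 0 lower by edgeR, against 15.3% and 12.1% of all genes. At an unadjusted p under 0.05, 5 members were higher and 9 lower, against 29.2% and 27.4% of all genes, and DESeq2 called 0 higher and 1 lower, against 16.6% and 14%. The median log2 fold change was -0.51 for S phase members and 0.13 for mitosis members. The intervals were wide, and 6 of 41 lay within a 2-fold change. Pcna, whose values are given above, was lower in all 3 SOX9-mEGFP_spheroid libraries than in any Halo-NLS library (log2 fold change -0.86, SE 0.22, adjusted p = 0.0047), a change under the 2-fold threshold. It passed that threshold without SOX9-mEGFP_spheroid replicate 1 (log2 fold change -1.04, adjusted p = 0.0041) and with the GC trend removed, when its log2 fold change was -1.60 and 3 members were called lower (all genes 14%). Without Halo-NLS replicate 1, 2 members were called higher, and without SOX9-mEGFP_budding replicate 3, 1 was called lower. These counts have no share of all genes beside them and are not read as a result about the members. Birc5 had a log2 fold change of -1.11, SE 0.34, adjusted p = 0.015.

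Mcm5, a helicase subunit with 2 E2F motifs in the promoter shown above, had normalised counts of 2428, 4408 and 9954 in Halo-NLS, 1964, 3316 and 5209.9 in SOX9-mEGFP_budding, 2912, 2880.1 and 4584 in SOX9-Halo_budding, 3149.6, 1875 and 2803 in SOX9-mEGFP_spheroid and 3524, 9584 and 9333 in SOX9-Halo_spheroid. Halo-NLS replicate 3 alone reached the level of the 2 high SOX9-Halo_spheroid libraries, and the 3 control libraries differed by 4.1-fold. Against Halo-NLS, the values were a log2 fold change of -1.10, SE 0.49, adjusted p = 0.075 in SOX9-mEGFP_spheroid. Chek1 counts were 178, 29.8 and 85.5 in Halo-NLS, 131, 246 and 590.2 in SOX9-mEGFP_budding, 322, 86.6 and 600.0 in SOX9-Halo_budding, 265, 177 and 205 in SOX9-mEGFP_spheroid and 172, 328 and 413 in SOX9-Halo_spheroid, so that Halo-NLS replicate 2 was the lowest library of all. Its values against Halo-NLS were a log2 fold change of 1.15, SE 0.70, adjusted p = 0.18 in SOX9-mEGFP_spheroid and a log2 fold change of 1.65, SE 0.70, adjusted p = 0.066 in SOX9-Halo_spheroid.

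The early SOX9 cultures were compared with the control in the same way. In SOX9-Halo_budding against Halo-NLS, edgeR called 0 members higher and 0 lower, against 2.49% and 1.26% of all genes, and DESeq2 called 0 and 0, against 7.58% and 2.88%. At an unadjusted p under 0.05, 4 were higher and 0 lower, against 20.5% and 17%. In SOX9-mEGFP_budding against Halo-NLS, edgeR called 0 and 0, against 1.99% and 0.763% of all genes, and DESeq2 called 0 and 0, against 6.46% and 1.98%. There, 3 were higher and 4 lower at an unadjusted p under 0.05, against 19% and 15.4%. The median log2 fold change of S phase members was -0.18 in SOX9-Halo_budding and -0.28 in SOX9-mEGFP_budding, and that of mitosis members was 0.33 and 0.31. Without Halo-NLS replicate 1, 1 member was called higher in each, a count given without the share of all genes and not read as a result. Both comparisons share the Halo-NLS libraries.

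Order by GC content set these values apart. In SOX9-Halo_budding the 11 members under 45% GC lay at a median log2 fold change of 1.10 and the 14 at 50% or more at -0.50, and in SOX9-mEGFP_budding the medians were 0.88 and -0.60. With the GC trend of each library removed the medians were 0.25 and -0.16 in SOX9-Halo_budding and 0.33 and -0.43 in SOX9-mEGFP_budding. The median of the mitosis members then turned from 0.33 to -0.13 in SOX9-Halo_budding and from 0.31 to -0.22 in SOX9-mEGFP_budding, while the median of all genes moved to -0.09 in both.

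Mki67, which encodes the proliferation antigen Ki-67, showed how wide the replicates were, with counts of 2258, 578 and 667 in Halo-NLS, 1489, 1162 and 7695 in SOX9-mEGFP_budding, 3691, 1081 and 8451 in SOX9-Halo_budding, 953, 2189.9 and 4328 in SOX9-mEGFP_spheroid and 999, 1274 and 1711 in SOX9-Halo_spheroid. Replicate 3 of each budding condition was far above the rest, the other 4 budding libraries lay between 1081 and 3691, and all conditions overlapped. Against Halo-NLS its values were a log2 fold change of 1.92, 95% interval 0.15 to 3.68, adjusted p = 0.11 in SOX9-Halo_budding and a log2 fold change of 1.56, 95% interval -0.18 to 3.31, adjusted p = 0.18 in SOX9-mEGFP_budding. In the spheroids they were a log2 fold change of 1.09, 95% interval -0.63 to 2.82, adjusted p = 0.27 for SOX9-mEGFP_spheroid and a log2 fold change of 0.19, 95% interval -1.52 to 1.90, adjusted p = 0.87 for SOX9-Halo_spheroid.

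Top2a, topoisomerase II alpha, which untangles replicated chromosomes, had counts of 5469.6, 697 and 1697 in Halo-NLS, 3449, 4321 and 10086 in SOX9-mEGFP_budding, 6959.6, 2674 and 11699 in SOX9-Halo_budding, 5595, 5232 and 5836 in SOX9-mEGFP_spheroid and 5049.5, 5776 and 6437 in SOX9-Halo_spheroid. Halo-NLS replicates 2 and 3 and SOX9-Halo_budding replicate 2, the 3 libraries of steepest positive GC slope, held the 3 lowest values of the series. Against Halo-NLS it had a log2 fold change of 1.44, SE 0.62, adjusted p = 0.11 in SOX9-Halo_budding. Kif11, the kinesin that separates spindle poles, had counts of 1491, 173 and 510.3 in Halo-NLS, 999, 1479.7 and 3946 in SOX9-mEGFP_budding, 2004, 514 and 3743 in SOX9-Halo_budding, 1032, 819 and 1051 in SOX9-mEGFP_spheroid and 1758, 2740.3 and 2931 in SOX9-Halo_spheroid, and the same 3 libraries were the lowest again. Against Halo-NLS it had a log2 fold change of 1.53, SE 0.72, adjusted p = 0.14 in SOX9-Halo_budding and a log2 fold change of 1.77, SE 0.72, adjusted p = 0.056 in SOX9-Halo_spheroid.

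Cdc20 and Aurka, a mitotic kinase of spindle assembly, lay at the lower end of the budding comparisons. Cdc20 counts were 3356, 4896 and 8150.4 in Halo-NLS, 2082, 2649 and 4019 in SOX9-mEGFP_budding, 2960.3, 2789.7 and 4422 in SOX9-Halo_budding, 3680.3, 2656 and 4108 in SOX9-mEGFP_spheroid and 4412, 7006 and 7295 in SOX9-Halo_spheroid, and Halo-NLS replicate 3 was the highest of all libraries. It had a log2 fold change of -0.91, SE 0.34, adjusted p = 0.076 in SOX9-mEGFP_budding against Halo-NLS. Aurka counts were 1909, 2318 and 3135 in Halo-NLS, 1122, 1389 and 2081 in SOX9-mEGFP_budding, 1422, 1203 and 2117 in SOX9-Halo_budding, 1408, 1022 and 1647 in SOX9-mEGFP_spheroid and 1452, 2290.1 and 2391 in SOX9-Halo_spheroid, with the highest value again in Halo-NLS replicate 3 (log2 fold change -0.68, SE 0.30, adjusted p = 0.13 in SOX9-mEGFP_budding). E2f1, the transcription factor of the G1 to S transition, had counts of 536, 926 and 1243 in Halo-NLS, 275, 506 and 749.8 in SOX9-mEGFP_budding, 496, 673 and 694 in SOX9-Halo_budding, 521, 438 and 490.5 in SOX9-mEGFP_spheroid and 535, 1286 and 1176 in SOX9-Halo_spheroid, and the difference of SOX9-mEGFP_budding from Halo-NLS was a log2 fold change of -0.82, SE 0.39, adjusted p = 0.15.

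**Figure D4:**
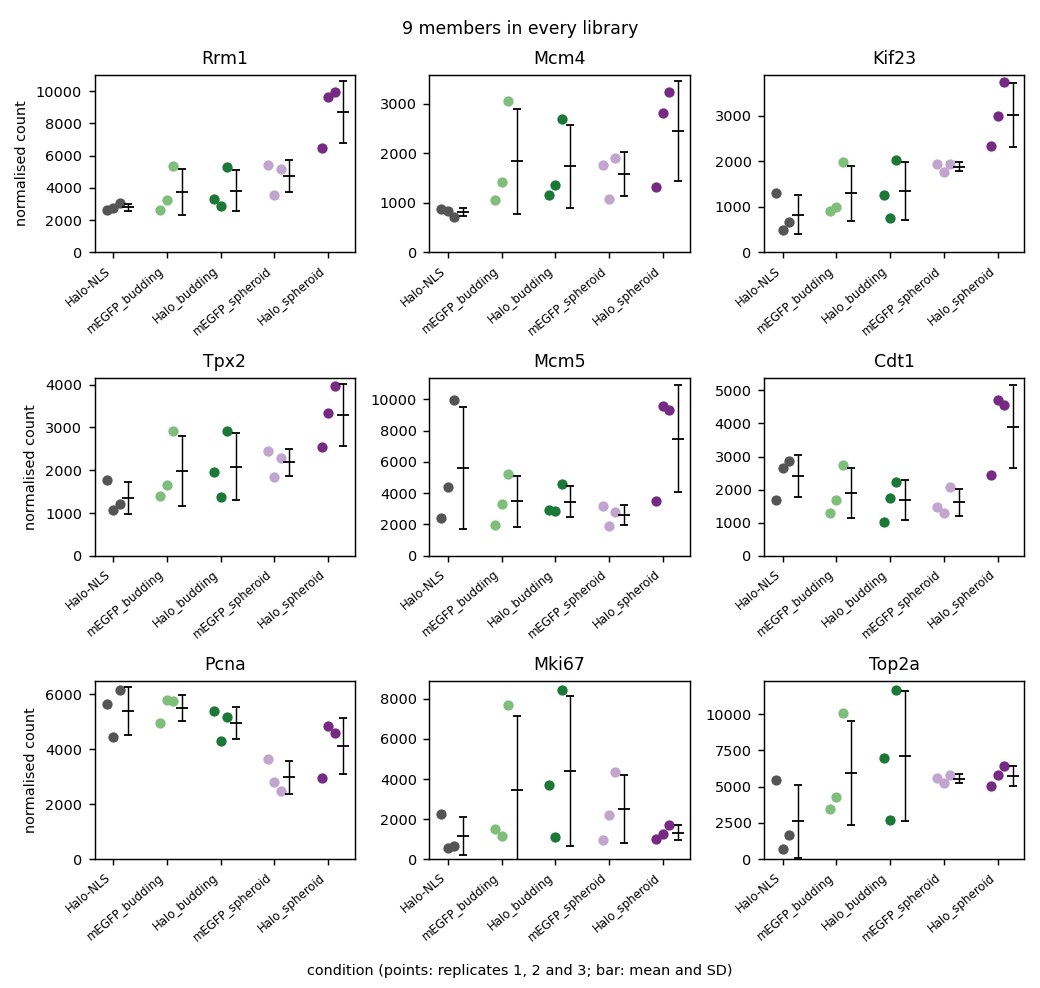
Normalised counts (y axes, from 0) of 9 members in the 5 conditions (x axis); each point is 1 library, in the order of replicates 1 to 3, and the black bar beside it gives the mean and SD of 3 libraries. Rrm1 and Kif23 are higher in all 3 SOX9-Halo_spheroid libraries than in any other library, Pcna has its lowest mean in SOX9-mEGFP_spheroid, and Mki67 and Top2a each have replicate 3 of both budding conditions far above the rest.

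Within the SOX9-Halo line, spheroid against budding, 1 member was called higher (Rrm1) and 0 lower, against 10.5% and 14.7% of all genes. DESeq2 called 2 higher and 0 lower, against 11.3% and 15.7%, and 6 members were higher and 0 lower at an unadjusted p under 0.05, against 21.1% and 26.9%. Medians were 0.42 for S phase members and 0.26 for mitosis members. Rrm1 had a log2 fold change of 1.18, SE 0.29, adjusted p = 0.0046, and the call was lost without SOX9-Halo_budding replicate 1 (adjusted p = 0.024), SOX9-Halo_budding replicate 2 (0.023), SOX9-Halo_spheroid replicate 2 (0.025) or SOX9-Halo_spheroid replicate 3 (0.029). Replicate numbers were taken to pair the libraries of this line, a pairing that comes from these same data and not from the labels. With replicate number as a block, 2 members were called higher in the fit of all libraries. In a fit of the SOX9-Halo libraries alone, 3 were (Rrm1, Cdt1 and Kif23). Without Halo-NLS replicate 1, SOX9-Halo_budding replicate 3, SOX9-mEGFP_budding replicate 3 or SOX9-Halo_spheroid replicate 1, 2 were called higher. Shares of all genes called in the block fits and in the fits without 1 library are not given. A larger count in them is therefore not read as a result about the members.

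Cdt1, the factor that loads the MCM helicase onto origins, had counts of 1689, 2656 and 2866 in Halo-NLS, 1290.1, 1683 and 2739 in SOX9-mEGFP_budding, 1033, 1758 and 2239 in SOX9-Halo_budding, 1471, 1298 and 2069 in SOX9-mEGFP_spheroid and 2445, 4700.3 and 4567 in SOX9-Halo_spheroid. All SOX9-Halo_spheroid libraries lay above all SOX9-Halo_budding libraries, and replicate 1 lay within the range of the control. Spheroid against budding, it had a log2 fold change of 1.22, SE 0.36, adjusted p = 0.012, just outside the threshold. Kif23 had a log2 fold change of 1.16, SE 0.40, adjusted p = 0.031 in the same comparison. With the GC trend removed, 6 members were called higher (all genes 14.2%): Rrm1, Cdt1, Kif23, Tpx2, Kif20a and Hmmr, which binds hyaluronan and the spindle. The median of all genes moved from -0.08 to 0.18 in that fit. For Rrm1 the log2 fold change was then 1.56, and for Hmmr 1.27.

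At the low end of this comparison stood Mki67 (log2 fold change -1.73, SE 0.82, adjusted p = 0.11) and the kinetochore proteins Cenpf and Cenpe. Cenpf counts were 374, 32.1 and 98.0 in Halo-NLS, 145, 109 and 720.2 in SOX9-mEGFP_budding, 519.5, 58.4 and 798 in SOX9-Halo_budding, 162, 241 and 397 in SOX9-mEGFP_spheroid and 205, 140.0 and 201 in SOX9-Halo_spheroid, a 13.7-fold spread within SOX9-Halo_budding (log2 fold change -1.33, SE 0.90, adjusted p = 0.27). Cenpe counts were 647, 51.6 and 151 in Halo-NLS, 231, 233 and 1085 in SOX9-mEGFP_budding, 885, 86.6 and 1295 in SOX9-Halo_budding, 335, 423 and 539 in SOX9-mEGFP_spheroid and 407, 358 and 532 in SOX9-Halo_spheroid, with replicate 2 of SOX9-Halo_budding far below replicates 1 and 3 (log2 fold change -0.81, SE 0.87, adjusted p = 0.5). Both transcripts are long and under 45% GC.

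Within the SOX9-mEGFP line, spheroid against budding, edgeR called 0 members higher and 0 lower, against 8.55% and 7.88% of all genes, and DESeq2 called 0 and 0, against 9.4% and 9.28%. At an unadjusted p under 0.05, 0 were higher (all genes 18.6%) and 1 lower (18.4%), Pcna, which had a log2 fold change of -0.89, SE 0.22, adjusted p = 0.0061. Without SOX9-mEGFP_spheroid replicate 1 its change passed the 2-fold threshold (-1.08, adjusted p = 0.0048) and 1 member was called lower. The share of all genes called in that fit is not given, and the count is not read as a result. Medians were -0.25 for S phase members and -0.18 for mitosis members, and 33 of 41 values were negative. For 19 of 41 members the 95% interval lay within a 2-fold change. Kif11 had a log2 fold change of -1.15, 95% interval -2.67 to 0.37, adjusted p = 0.28. Ccne2 counts were 305, 70.0 and 184 in Halo-NLS, 111, 258 and 361 in SOX9-mEGFP_budding, 337, 96.3 and 426 in SOX9-Halo_budding, 181, 121 and 115 in SOX9-mEGFP_spheroid and 141, 343 and 422 in SOX9-Halo_spheroid, with overlap between the budding and spheroid libraries of this line (log2 fold change -0.81, 95% interval -2.08 to 0.47, adjusted p = 0.38). Kif23 (log2 fold change 0.53, 95% interval -0.32 to 1.38, adjusted p = 0.39), Kif20a (log2 fold change 0.50, 95% interval -0.13 to 1.12, adjusted p = 0.25) and Rrm1 (log2 fold change 0.33, 95% interval -0.29 to 0.95, adjusted p = 0.47) had the most positive values, and none passed the test. Kif11 is on chromosome 19, whose median over its tested genes was -0.435 here, against -0.04 for all genes. Kif20a is on chromosome 18, whose median was 0.428. The part of these shifts in the values of Kif11 and Kif20a was not tested.

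The 2 spheroid conditions were then compared with each other. Besides the line, they differed in the histone fusion they carried and in the drug that selected for it. The paper also places SOX9-Halo_spheroid after SOX9-mEGFP_spheroid in time in culture and in progress of the spheroid shape. These differences cannot be told apart here. Although 0 members were called higher and 0 lower in SOX9-Halo_spheroid than in SOX9-mEGFP_spheroid, against 3.59% and 9.58% of all genes, all 18 S phase members and 21 of 23 mitosis members had positive values. Medians were 0.78 for S phase members and 0.57 for mitosis members, against -0.05 for all genes. At an unadjusted p under 0.05, 15 members were higher and 0 lower, against 13.4% and 21.6% of all genes, and DESeq2 called 1 higher and 0 lower, against 4.6% and 11%. For 15 of the 41 members all 3 SOX9-Halo_spheroid libraries lay above all 3 SOX9-mEGFP_spheroid libraries, against 20.6% of all genes. Without SOX9-Halo_spheroid replicate 1, or without SOX9-mEGFP_budding replicate 3, 1 member was called higher. For these fits the share of all genes is not given, and nothing is read from the count. With the GC trend removed 6 members were called higher (all genes 6.96%), namely Mcm5, Cdt1, Rrm1, Ccnb1, Hmmr and Ube2c, while the median of all genes moved to 0.23.

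Mcm5 (log2 fold change 1.52, SE 0.50, adjusted p = 0.037) had the highest value of all members and Cdt1 (log2 fold change 1.28, SE 0.36, adjusted p = 0.016) the third highest. Gins2, a subunit of the GINS complex that joins the helicase, had a log2 fold change of 1.12, SE 0.41, adjusted p = 0.061. Gins2 counts were 588, 578 and 1342 in Halo-NLS, 292, 522 and 819.9 in SOX9-mEGFP_budding, 767, 551 and 931 in SOX9-Halo_budding, 572, 371 and 369.5 in SOX9-mEGFP_spheroid and 624, 1027 and 1205 in SOX9-Halo_spheroid, and 67.3% of its exonic bases overlap another gene. Kif11 had a log2 fold change of 1.36, SE 0.71, adjusted p = 0.2. Mki67 (log2 fold change -0.91, SE 0.80, adjusted p = 0.46), Cenpf (log2 fold change -0.55, SE 0.89, adjusted p = 0.71) and Cenpe (log2 fold change 0.00, SE 0.87, adjusted p = 1) had the lowest values.

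Mcm5, Cdt1 and Gins2 are the 3 members on chromosome 8. In this comparison the median log2 fold change over the 972 genes tested on that chromosome was 0.47, against -0.05 for all genes, and the 3 members exceeded their chromosome's median by 1.05, 0.80 and 0.65. The median of the 3 was 1.28, and that of the 38 members on other chromosomes was 0.59. In SOX9-Halo_spheroid against SOX9-Halo_budding the median of chromosome 8 was 0.41, and in SOX9-mEGFP_spheroid against SOX9-mEGFP_budding it was -0.06. Kif11 on chromosome 19 and Kif20a on chromosome 18 are also on chromosomes that shifted in this comparison, with medians of 0.56 and -0.60. The part of these chromosome-wide shifts in the values of the members was not tested.

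Between the budding cultures of the lines, SOX9-Halo_budding against SOX9-mEGFP_budding, edgeR called 0 members higher and 0 lower, against 0.29% and 0.165% of all genes, and DESeq2 called 0 and 0, against 0.598% and 0.638%. The counts at an unadjusted p under 0.05 were 0 and 0, against 3.3% and 5.07%. Medians were 0.06 for S phase members and 0.13 for mitosis members. For 26 of 41 members the 95% interval of the difference lay within a 2-fold change. The values ran from -0.18 for Cdt1 to 0.55 for Cenpe (log2 fold change 0.55, 95% interval -1.31 to 2.40, adjusted p = 1). Rrm2, the small subunit of ribonucleotide reductase, had counts of 2214, 2379.9 and 2122 in Halo-NLS, 1211, 1566 and 2957 in SOX9-mEGFP_budding, 1179, 1377 and 2795 in SOX9-Halo_budding, 2097, 1661 and 3001 in SOX9-mEGFP_spheroid and 1397, 3130.1 and 3675 in SOX9-Halo_spheroid, with nearly the same spread in both budding conditions (log2 fold change -0.10, 95% interval -0.97 to 0.77, adjusted p = 1).

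Whether the step from budding to spheroid changed the members unequally in the lines was tested directly as an interaction. The lines also differed in time in culture and in the histone fusion of their spheroids, which this test cannot tell apart from the line. By edgeR 0 members were called positive and 0 negative, against 1.81% and 5.58% of all genes, and DESeq2 called 0 and 0, against 3.04% and 7.37%. With no adjustment, 2 were positive and 0 negative at p under 0.05, against 8.25% and 15.7%. Positive values mean a larger rise in SOX9-Halo. The median was 0.73 for S phase members and 0.40 for mitosis members, against -0.08 for all genes, and 36 of 41 values were positive. Mcm5 had a difference of 1.54 (log2), SE 0.69, adjusted p = 0.19, Cdt1 a difference of 1.46 (log2), SE 0.50, adjusted p = 0.072, Kif11 a difference of 1.39 (log2), SE 1.00, adjusted p = 0.45 and Mki67 a difference of -1.26 (log2), SE 1.13, adjusted p = 0.57. Chromosome 8, which holds Mcm5 and Cdt1, had a median of 0.42 over its tested genes here. For chromosome 19, which holds Kif11, it was 0.88. The part of these chromosome-wide shifts in the differences was not tested. No member's 95% interval lay within a 2-fold difference, so the lines were not shown to differ in these genes, nor to be alike.

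**Figure D5:**
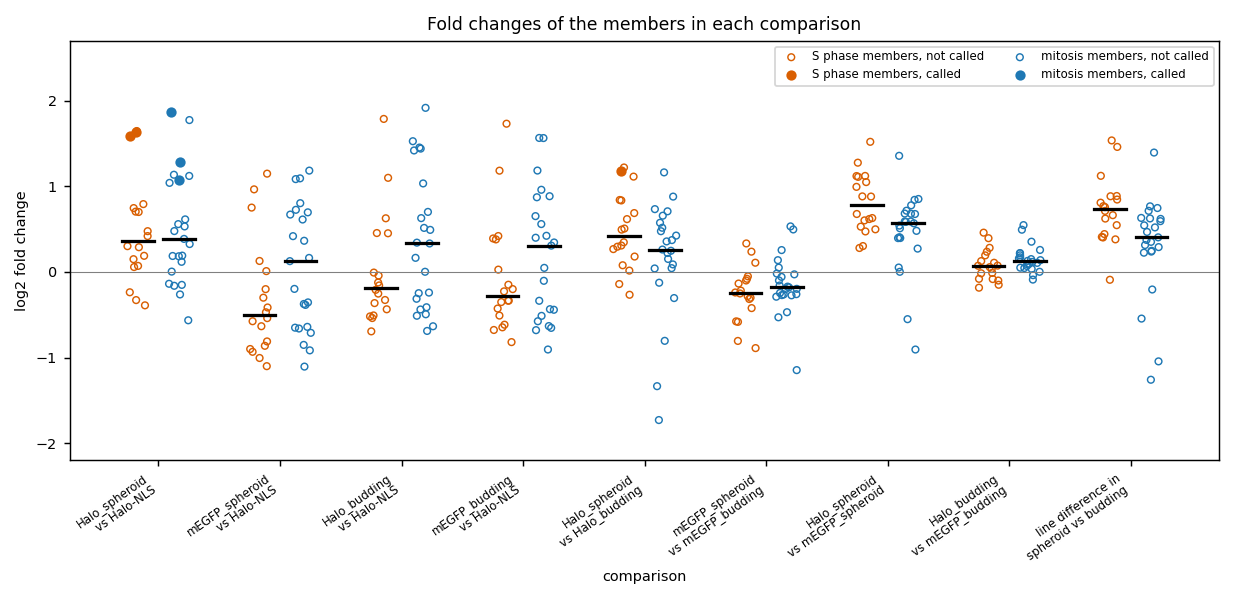
Log2 fold change (y axis) of the S phase members (orange) and mitosis members (blue) in the 9 comparisons (x axis); filled points passed the edgeR test, open points did not, and black lines are medians. Called members appear only in SOX9-Halo_spheroid against Halo-NLS (5) and against SOX9-Halo_budding (1); the S phase median runs from -0.51 in SOX9-mEGFP_spheroid against Halo-NLS to 0.78 between the spheroids.

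A looser rule, an adjusted p of at most 0.05 at any fold, was applied beside the main one. In SOX9-Halo_spheroid against Halo-NLS it took 6 members as higher (all genes 21.2%), and in SOX9-mEGFP_spheroid against Halo-NLS 3 as higher (23.9%) and 4 as lower (22.2%). Within the SOX9-Halo line it took 4 as higher (16.7%) and within the SOX9-mEGFP line 1 as lower (12.4%). Between the spheroids it took 4 as higher in SOX9-Halo_spheroid (7.71%). The members' shares lay below the background in these counts, with the exception of the last.

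Several members that are often read as measures of proliferation did not pass the test in any comparison. Mcm2, a helicase subunit, had counts of 1896, 3428 and 6519 in Halo-NLS, 1642, 2532 and 4140.0 in SOX9-mEGFP_budding, 2337, 2628 and 3786 in SOX9-Halo_budding, 2492, 1646 and 2608 in SOX9-mEGFP_spheroid and 2265, 4924 and 5242 in SOX9-Halo_spheroid. Its SOX9-Halo_spheroid libraries lay within the range of Halo-NLS (log2 fold change 0.07, 95% interval -0.86 to 1.00, adjusted p = 0.91). Cdk1, the kinase that drives entry into mitosis and whose promoter holds all 3 motifs, had counts of 3197, 2468 and 4579 in Halo-NLS, 2051, 2449 and 3608 in SOX9-mEGFP_budding, 2794, 1844 and 3986 in SOX9-Halo_budding, 3092, 2237 and 2673 in SOX9-mEGFP_spheroid and 3230.1, 4514 and 5091 in SOX9-Halo_spheroid. Its conditions overlapped too (log2 fold change 0.33, 95% interval -0.33 to 0.98, adjusted p = 0.4). Ccne1, cyclin E1, had counts of 365, 567 and 841 in Halo-NLS, 217, 328 and 584 in SOX9-mEGFP_budding, 341, 395 and 752 in SOX9-Halo_budding, 507, 229 and 483 in SOX9-mEGFP_spheroid and 179, 636 and 687 in SOX9-Halo_spheroid, with its lowest value in SOX9-Halo_spheroid replicate 1 and its highest in Halo-NLS replicate 3 (log2 fold change -0.24, 95% interval -1.33 to 0.85, adjusted p = 0.73). The other 16 members, with values given here by range only, were Mcm3, Mcm6, Tyms, Cdc6, Cdc45, Ccna2, Ccnb1, Ccnb2, Bub1, Bub1b, Aurkb, Plk1, Cenpa, Ube2c, Nusap1 and Hmmr. Their log2 fold changes ran from -0.16 (Aurkb) to 1.12 (Bub1) in SOX9-Halo_spheroid against Halo-NLS and from -0.92 (Ube2c) to 0.73 (Bub1) in SOX9-mEGFP_spheroid against Halo-NLS, and none was called in any of the 9 comparisons.

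Genes of the same processes outside the panel were counted by the same rule. Of 54 other replication genes, 4 were called higher and 0 lower in SOX9-Halo_spheroid against Halo-NLS, against 13.6% and 15.3% of all genes, and 0 higher and 4 lower in SOX9-mEGFP_spheroid against Halo-NLS, against 15.3% and 12.1%. These shares lay below the background and are no result about the list. The 2 largest rises were those of Orc6, a subunit of the origin recognition complex, with counts of 563, 409.7 and 601 in Halo-NLS and 1530.4, 2159.5 and 2502 in SOX9-Halo_spheroid (log2 fold change 1.98, SE 0.35, adjusted p = 0.00025), and Gins3 (log2 fold change 1.5, SE 0.43, adjusted p = 0.0092). Both are on chromosome 8. The 2 largest falls in SOX9-mEGFP_spheroid were those of Chtf18, which helps load the clamp, with counts of 586, 999 and 1288 in Halo-NLS and 330.1, 223 and 382 in SOX9-mEGFP_spheroid (log2 fold change -1.62, SE 0.38, adjusted p = 0.0031), and Rpa3, a subunit of the single-strand binding protein RPA (log2 fold change -1.43, SE 0.33, adjusted p = 0.0024).

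Of 65 other mitosis genes, 10 were called higher and 0 lower in SOX9-Halo_spheroid against Halo-NLS (all genes 13.6% and 15.3%), and 2 higher and 1 lower in SOX9-mEGFP_spheroid (15.3% and 12.1%), shares near or below the background. Psrc1, a microtubule-binding protein of the spindle, rose most in both. Its counts were 246, 316 and 414 in Halo-NLS, 357, 409 and 707 in SOX9-mEGFP_budding, 432, 396 and 898 in SOX9-Halo_budding, 4350.3, 5253 and 4192 in SOX9-mEGFP_spheroid and 8423, 7033 and 8187 in SOX9-Halo_spheroid, so the 6 spheroid libraries did not overlap with the other 9 (log2 fold change 4.6, SE 0.37, adjusted p = 1.2e-07 in SOX9-Halo_spheroid and a log2 fold change of 3.82, SE 0.35, adjusted p = 1.0e-06 in SOX9-mEGFP_spheroid). Cep55, which acts at the last step of cytokinesis, rose in SOX9-Halo_spheroid (log2 fold change 2.62, SE 0.53, adjusted p = 0.00084). Anln, anillin of the contractile ring, was called in SOX9-mEGFP_spheroid (log2 fold change 1.48, SE 0.42, adjusted p = 0.0098), where Cdca5, which stabilises cohesion, fell (log2 fold change -1.45, SE 0.39, adjusted p = 0.007). Within the SOX9-Halo line 5 of 65 rose from budding to spheroid (all genes 10.5%) and within the SOX9-mEGFP line 1 did, Psrc1 (8.55%).

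Of 25 regulators of G1, 4 were called higher and 1 lower in SOX9-Halo_spheroid against Halo-NLS (all genes 13.6% and 15.3%), and 3 higher and 3 lower in SOX9-mEGFP_spheroid (15.3% and 12.1%), so that these counts were near or below the background too. Ccnd1, cyclin D1, had counts of 1175, 2155 and 2069 in Halo-NLS, 1199, 1719.6 and 2686 in SOX9-mEGFP_budding, 775, 1091 and 1899 in SOX9-Halo_budding, 7708, 8699.5 and 7829.8 in SOX9-mEGFP_spheroid and 13655, 14682 and 15728 in SOX9-Halo_spheroid and rose in both spheroid conditions (log2 fold change 3.03, SE 0.36, adjusted p = 5.8e-06 and a log2 fold change of 2.17, SE 0.34, adjusted p = 0.00014). Ccnd2, cyclin D2, had counts of 4517, 3484 and 4381 in Halo-NLS, 7269, 6909 and 7643 in SOX9-mEGFP_budding, 7862, 9751 and 12700.4 in SOX9-Halo_budding, 41760.0, 47795 and 44003 in SOX9-mEGFP_spheroid and 28776, 27474 and 28586 in SOX9-Halo_spheroid and rose in both as well (log2 fold change 2.78, SE 0.20, adjusted p = 3.9e-08 and a log2 fold change of 3.43, SE 0.20, adjusted p = 2.2e-08). Ccnd2 was also the 1 gene of the list called in SOX9-Halo_budding (log2 fold change 1.29, SE 0.19, adjusted p = 0.00096). E2f2, an activating E2F factor, had counts of 3965, 7409 and 5654 in Halo-NLS, 3786, 3570.0 and 2247 in SOX9-mEGFP_budding, 2957, 4506 and 2611 in SOX9-Halo_budding, 930.1, 545 and 793 in SOX9-mEGFP_spheroid and 150.4, 191 and 208 in SOX9-Halo_spheroid and fell in both spheroid conditions (log2 fold change -4.95, SE 0.35, adjusted p = 3.5e-08 and a log2 fold change of -2.91, SE 0.31, adjusted p = 4.1e-06). The spheroid and non-spheroid libraries did not overlap for E2f2. Cdk4, the partner kinase of the D cyclins, fell in SOX9-mEGFP_spheroid (log2 fold change -1.23, SE 0.24, adjusted p = 0.0008). Mycn, a MYC family factor, moved in opposite directions, with counts of 92.8, 94.1 and 55.3 in Halo-NLS, 265, 164 and 22.6 in SOX9-mEGFP_budding, 339.7, 421 and 108 in SOX9-Halo_budding, 8.87, 10.0 and 5.71 in SOX9-mEGFP_spheroid and 546, 361 and 443 in SOX9-Halo_spheroid (log2 fold change 2.48, SE 0.65, adjusted p = 0.0055 in SOX9-Halo_spheroid and a log2 fold change of -3.28, SE 0.75, adjusted p = 0.0024 in SOX9-mEGFP_spheroid).

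Of 10 CDK inhibitors and pocket proteins, 3 were called higher and 1 lower in SOX9-Halo_spheroid and 2 higher and 1 lower in SOX9-mEGFP_spheroid, each against Halo-NLS and beside the same shares of all genes. Nothing is read from counts this small. Cdkn2a, the locus of p16 and p19ARF, had 1, 2 and 3 counts in Halo-NLS and between 1017 and 1932 counts in the 6 spheroid libraries, and Cdkn1c (p57) fell in SOX9-Halo_spheroid (log2 fold change -4.78, SE 0.48, adjusted p = 1.2e-06) and in SOX9-mEGFP_spheroid (log2 fold change -4.22, SE 0.46, adjusted p = 4.5e-06). Cdkn2c was called higher in SOX9-Halo_spheroid (log2 fold change 1.21, SE 0.25, adjusted p = 0.0011) and not in SOX9-mEGFP_spheroid (log2 fold change -0.57, adjusted p = 0.073). Rbl2 was called higher in SOX9-Halo_spheroid (log2 fold change 1.10, adjusted p = 0.0081) and in SOX9-mEGFP_spheroid (log2 fold change 1.17, adjusted p = 0.0058).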

How the data were processed

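Poly-A RNA of 15 organoid samples was sequenced without strand information. The authors trimmed reads with cutadapt 4.5, aligned unique reads to the mouse genome mm39 with STAR and deposited counts per gene from HTSeq 2.0.2, which leaves reads in overlapping genes uncounted. The annotation release was not given in the sources used here. Reads assigned to no gene (1.83 to 6.09% of each library) and ambiguous reads (9.65 to 13.6%) stayed out of library sizes and tests. Tables of the authors' own fold changes and p-values were not used.

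The deposited counts were filtered for low values and scaled by TMM in edgeR 4.0.16 (R 4.3.3), leaving 17560 genes. All 15 libraries entered 1 quasi-likelihood fit with 5 conditions, tested in 9 contrasts with Benjamini-Hochberg adjustment over all genes. Calls needed an adjusted p of at most 0.01, a change of at least 2-fold and a mean normalised count of at least 10. The common biological coefficient of variation was 0.302. Intervals are 95% intervals from the fit. DESeq2 1.42.0 and other settings were alternatives (shares of all genes called by DESeq2 are of the genes it gave an adjusted p). GC-trend removal, leaving out the 3 libraries of steepest positive GC slope together and a block within the SOX9-Halo line were chosen after seeing the data. The script was tested on simulated data.

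Members and lists were chosen with earlier results of these data known. Values in every library are given for 8 fixed members and for the 3 highest and 3 lowest members of each comparison. From other lists, the 2 largest called rises and falls of each spheroid condition against Halo-NLS are named, among genes with mean counts of at least 100. Mycn and Cdkn2a were named after their values were seen. Samples with the same replicate number deviated together (r = 0.275, 0.162 and 0.24) between SOX9-Halo_budding and SOX9-Halo_spheroid, where the numbers were taken to pair the samples, a pairing that comes from the data and not from the labels. In the other pairs of conditions at least 1 of the 3 correlations was at most 0.1. Single correlations there were larger than those of the SOX9-Halo pair. They reached 0.646 for replicate 2 of Halo-NLS and SOX9-Halo_budding and 0.618 for replicate 3 of the 2 budding conditions.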

Additional observations from a re-analysis of the deposited data

Results flagged for a closer look

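The step from budding to spheroid was unequal in the SOX9-Halo and SOX9-mEGFP lines for 4 genes of the wider cell cycle lists and for none of the 41 members. This was edgeR's quasi-likelihood test of the interaction with Benjamini-Hochberg adjustment over all genes. It called 1.81% of all genes positive and 5.58% negative, so the count of 4 is no result about the lists. For Mycn the change was higher in SOX9-Halo (a difference of 4.80 (log2), SE 0.97, adjusted p = 0.0033). For Orc6 it was higher too (a difference of 2.06 (log2), SE 0.48, adjusted p = 0.0087). Orc6 is on chromosome 8, whose median difference was 0.42, against -0.08 for all genes. For E2f2 (a difference of -2.11 (log2), SE 0.42, adjusted p = 0.0031) and Ccnd2 (a difference of -1.13 (log2), SE 0.26, adjusted p = 0.0086) the change was lower in SOX9-Halo. For Mycn all 3 SOX9-mEGFP_spheroid libraries lay below all 3 SOX9-mEGFP_budding libraries, whereas the spheroid and budding libraries of SOX9-Halo overlapped. The lines also differed in time in culture and in the histone fusion of their spheroids, and causes were not tested.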

How the results depend on the processing

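No direction of a called member reversed under any alternative, and the statements here concern counts of members called and medians (log2) of the 2 member groups. Shares of all genes called under each setting are not given beside these counts. A larger or smaller count is therefore not read as a result about the members. Library size scaling gave 0 members higher within the SOX9-Halo line. Without the low-count filter, calls became 10 higher in SOX9-Halo_spheroid and 5 higher and 1 lower in SOX9-mEGFP_spheroid against Halo-NLS, 7 higher in SOX9-Halo_budding, 5 higher in SOX9-mEGFP_budding, 4 higher and 2 lower within the SOX9-Halo line, 1 lower within the SOX9-mEGFP line, 6 higher between spheroids and 2 in the interaction. DESeq2 gave 1 lower in SOX9-mEGFP_spheroid, 2 higher within the SOX9-Halo line and 1 higher between spheroids. With only the libraries compared, the last 2 counts were 0 and 4. With the replicate block, where only the SOX9-Halo pairing met the check, they were 2 and 1, with 1 lower in SOX9-mEGFP_spheroid and 1 in the interaction, and the block within the SOX9-Halo line gave 3. At an adjusted p of 0.05 and any fold, SOX9-mEGFP_spheroid had 3 higher and 4 lower, the SOX9-Halo line 4 higher, the SOX9-mEGFP line 1 lower and the spheroids 4 higher.

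With the GC trend removed, SOX9-mEGFP_spheroid had 3 lower, the SOX9-Halo line 6 higher and the spheroids 6 higher, and mitosis medians were -0.42 in SOX9-mEGFP_spheroid, -0.13 in SOX9-Halo_budding, -0.22 in SOX9-mEGFP_budding and 0.78 in the interaction. With GC and length trends removed, the counts were 1, 4 and 5, and mitosis medians -0.40 in SOX9-mEGFP_spheroid, -0.10 in SOX9-mEGFP_budding and 0.67 within the SOX9-Halo line. A fit without the 3 libraries of steepest positive GC slope kept 1 Halo-NLS library, assumed to vary like the other conditions, and 2 of SOX9-Halo_budding. Calls lost in it are therefore no check of the GC trend. In it 0 were called in SOX9-Halo_spheroid against Halo-NLS and 0 within the SOX9-Halo line, the S phase median was 0.48 in SOX9-Halo_budding, and mitosis medians were -0.30 in SOX9-mEGFP_spheroid and -0.22 in SOX9-mEGFP_budding. Leaving out 1 library moved the count in SOX9-Halo_spheroid against Halo-NLS between 2 and 5, higher calls in SOX9-mEGFP_spheroid between 0 and 2 and lower calls between 0 and 1, higher calls in SOX9-Halo_budding and in SOX9-mEGFP_budding between 0 and 1, within the SOX9-Halo line between 0 and 2, between the spheroids between 0 and 1, and lower calls within the SOX9-mEGFP line between 0 and 1. Mitosis medians moved from -0.065 to 0.50 in SOX9-Halo_budding, from -0.27 to 0.48 in SOX9-mEGFP_budding, from 0.088 to 0.67 within the SOX9-Halo line and from -0.39 to 0.20 within the SOX9-mEGFP line. The causes were not tested. With 3 libraries per condition and this spread, many members could not be shown to lie within a 2-fold change. Between the budding cultures most could, and in the interaction none could.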
